A study of Mus musculus with 38 samples.

Results

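The first 4 h of the response of mouse macrophages to lipopolysaccharide (LPS) and interferon gamma (IFNg) were compared with the unstimulated state. The comparison took 8 of the 38 libraries of the series, chosen by their labelled time, and every gene of the deposited expression table, 11184 in all. The tissue source was C57BL/6 bone marrow, from which primary macrophages were grown in culture. The 4 libraries at 4 h came from cells given LPS at 5 ng/ml with IFNg at 12 ng/ml. The 4 libraries at 0 h stand for cells without stimulation, although their treatment label also reads LPS/IFNg and only the time of 0 h sets them apart. The labels name no other allele or agent in either group. Whether a group's libraries stem from different mice or cultures is not stated, so the p-values reflect library-to-library spread, which may be technical. The remaining libraries follow the response to 24 h, with and without added lactic acid, or map histone lactylation and acetylation. All 32 RNA libraries enter the choice of genes to test and the estimate of spread behind each p-value. Those without lactic acid also give the later levels below, and the histone libraries give peaks in gene spans and at start sites.

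LPS, a lipid of the outer membrane of Gram-negative bacteria, is carried by Cd14 to the receptor Tlr4 and its partner Ly96. Adaptors and kinases of the Myd88 and Ticam1 branches then free NF-kB from its inhibitors, activate MAP kinases and AP-1, and start the production of interferon beta through Irf3. IFNg binds Ifngr1 and Ifngr2, which carry Jak1 and Jak2, and the kinases activate factors that bind GAS elements. Type I interferon acts through factors such as Stat2 and Irf9 on ISRE elements. The pathways induce their own brakes, among them the IkB proteins, the ubiquitin-editing enzyme Tnfaip3 (A20), the SOCS proteins and the mRNA-destabilising protein Zfp36.

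Promoter windows of 7 genes are shown because they carry the main directions of the response: a chemokine, an NF-kB inhibitor, a cytokine-signalling inhibitor, a GTPase and an antiviral gene that rose, and a chemokine receptor and a transmembrane protein gene that fell. Each window is the RefSeq sequence of GRCm38.p6 from 250 bases before to 50 bases after an annotated start, 5′ to 3′ on the strand of the gene, and capitals mark matches to the searched letters.
Cxcl10: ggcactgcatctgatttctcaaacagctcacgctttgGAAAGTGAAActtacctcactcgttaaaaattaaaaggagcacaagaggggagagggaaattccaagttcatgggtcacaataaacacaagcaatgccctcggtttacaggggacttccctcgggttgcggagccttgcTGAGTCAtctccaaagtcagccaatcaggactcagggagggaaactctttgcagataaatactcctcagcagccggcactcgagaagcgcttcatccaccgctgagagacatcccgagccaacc
Nfkbia: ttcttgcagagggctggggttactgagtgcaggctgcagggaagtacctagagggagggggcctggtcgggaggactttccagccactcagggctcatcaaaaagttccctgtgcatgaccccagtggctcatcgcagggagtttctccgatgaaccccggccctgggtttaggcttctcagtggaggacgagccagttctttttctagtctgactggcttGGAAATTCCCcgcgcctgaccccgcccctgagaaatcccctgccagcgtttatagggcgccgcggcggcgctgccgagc
Socs3: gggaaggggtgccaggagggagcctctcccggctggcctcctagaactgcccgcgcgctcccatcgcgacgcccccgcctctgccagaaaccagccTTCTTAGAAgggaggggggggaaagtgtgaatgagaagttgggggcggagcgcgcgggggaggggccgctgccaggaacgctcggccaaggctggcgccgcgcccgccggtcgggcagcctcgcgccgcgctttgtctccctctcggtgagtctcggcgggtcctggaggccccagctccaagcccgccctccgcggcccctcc
Gbp5: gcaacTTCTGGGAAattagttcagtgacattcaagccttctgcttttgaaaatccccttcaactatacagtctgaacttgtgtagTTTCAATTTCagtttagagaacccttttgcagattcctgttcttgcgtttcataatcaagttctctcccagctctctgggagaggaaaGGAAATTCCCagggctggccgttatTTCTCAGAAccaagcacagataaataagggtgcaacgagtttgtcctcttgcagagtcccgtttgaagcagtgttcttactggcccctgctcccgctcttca
Ifit1: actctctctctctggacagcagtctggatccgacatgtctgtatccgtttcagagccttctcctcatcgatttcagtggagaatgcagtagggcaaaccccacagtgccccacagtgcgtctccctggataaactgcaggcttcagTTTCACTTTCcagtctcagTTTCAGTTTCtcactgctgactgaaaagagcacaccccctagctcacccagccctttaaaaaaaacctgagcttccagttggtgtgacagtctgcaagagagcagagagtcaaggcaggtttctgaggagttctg
Cxcr4: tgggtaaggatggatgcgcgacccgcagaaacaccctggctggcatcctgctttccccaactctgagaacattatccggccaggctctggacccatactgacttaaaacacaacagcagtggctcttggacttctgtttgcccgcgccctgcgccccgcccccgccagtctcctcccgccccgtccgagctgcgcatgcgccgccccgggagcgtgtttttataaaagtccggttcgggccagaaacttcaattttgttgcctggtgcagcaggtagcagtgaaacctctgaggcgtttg
Tmem86a: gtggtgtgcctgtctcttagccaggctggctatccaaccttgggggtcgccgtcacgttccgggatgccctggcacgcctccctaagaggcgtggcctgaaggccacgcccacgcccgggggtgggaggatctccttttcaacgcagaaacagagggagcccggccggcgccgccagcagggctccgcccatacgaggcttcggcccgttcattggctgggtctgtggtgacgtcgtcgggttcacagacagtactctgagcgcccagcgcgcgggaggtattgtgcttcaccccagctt
The Cxcl10 window (chr5:92348840-92349139, minus strand) held GAAAGTGAAA, of the ISRE form, starting 213 bases before the start, and TGAGTCA, of the AP-1 form, 74 bases before it. The Nfkbia window (chr12:55492598-55492897, minus strand) held GGAAATTCCC, an NF-kB form on the opposite strand, 29 bases before the start. In the Socs3 window (chr11:117969317-117969616, minus strand) the match was TTCTTAGAA, a GAS form, 154 bases before the start. The Gbp5 window (chr3:142496684-142496983, plus strand) held matches of 3 kinds: GAS forms 245 and 52 bases before the start, an ISRE form on the opposite strand 165 bases before it and an NF-kB form on the opposite strand 77 bases before it. The Ifit1 window (chr19:34640639-34640938, plus strand) held ISRE forms on the opposite strand 104 and 85 bases before the start. The windows of Cxcr4 (chr1:128592250-128592549, minus strand) and Tmem86a (chr7:47050390-47050689, plus strand) held none of the letters searched.

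The letters searched on both strands were TTCNNNGAA for GAS, TGANTCA for AP-1 and TCACNCCAC for SREBP, with N as any base. For NF-kB they were GGG and TTTCC with 2 bases between them, and for ISRE GAAA and again GAAA with 2 bases between them. No match overlapped another in these windows. Of all 32851 RefSeq windows of this length, 1.63% held the NF-kB letters, 3.44% the ISRE letters, 8.3% the GAS letters, 7.81% the AP-1 letters and 1.24% the SREBP letters. A match describes the letters and is not a binding site. A window without a match can still hold other forms of an element. Windows were at hand for 77.7% of the genes at least 2-fold higher, 77.3% of those at least 2-fold lower and 78.7% of all genes tested, under the 80% set for such a check, so a comparison of motif shares between these groups is void.

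Messenger RNA was sequenced from a stranded library, and the deposited values are RPKM, reads scaled by gene length and by the authors' effective library size. Whole reads could be recovered from them and summed to 87.0 to 103.9 M per library at 4 h, against 61.3 to 69.6 M at 0 h. The first principal component of the 8 libraries took 98.5% of the variance and separated the 2 groups. All 12 macrophage markers were listed, and their summed level was 15381 to 16560 RPKM at 4 h, against 20563 to 22909 RPKM at 0 h. Of the 12 markers, 7 were lower at 4 h, 2 were higher (Cd14 and Fcgr1) and 3 did not pass the test. Adgre1, the F4/80 antigen, stood at 465 ± 14.4 RPKM at 4 h against 430 ± 18.2 RPKM at 0 h and was among the 3. It passed as higher under 3 alternatives (0.11 to 0.20 on the log2 scale) and as lower (-0.42) with libraries scaled to the reads in listed genes. In bulk RNA, fewer cells of a type and less of the RNA in each cell cannot be told apart. Of 12 markers of neutrophils and their precursors, 5 were listed and 4 tested, all 4 higher: S100a8, S100a9, Camp and Ngp. Their list summed to 55.4 to 84.2 RPKM at 4 h, against 10.4 to 16.1 RPKM at 0 h, and Elane, Mpo and Ly6g were not analysed here. Cd79b, the lymphocyte marker that was listed, was lower at 1.88 ± 0.329 RPKM at 4 h against 5.34 ± 0.516 RPKM at 0 h. Of 9 dendritic cell markers, 3 were listed and 2 tested, and those 2, Xcr1 and Bst2, were higher. The dendritic cell list summed to 602 to 691 RPKM at 4 h, against 315 to 340 RPKM at 0 h. Nearly all of that sum was Bst2, which averaged 629 RPKM at 4 h and 325 RPKM at 0 h. Of 10 stromal and endothelial markers, 7 were listed and 2 tested, and those 2 were also higher. The stromal and endothelial list summed to at most 4.12 RPKM at 4 h and 1.01 RPKM at 0 h. The part of these cells in the results was not tested.

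A gene was tested if it reached 1 RPKM in 4 or more of the 32 RNA libraries, which 9942 did. Of these, 85.3% passed the test in one direction or the other: 4228 genes (42.5%) were higher at 4 h and 4248 (42.7%) were lower, while 1466 did not pass. The test was limma on log2(RPKM + 1) with Benjamini-Hochberg adjustment over all genes, and fold changes are on that scale, which understates the change of low genes. Changes of at least 2-fold numbered 1372 higher (13.8%) and 1146 lower (11.5%). The lower count was 1829 with a pseudocount of 0.1 and 1940 with limma voom on the recovered reads. On log2(RPKM + 1), 103 genes were at least 16-fold higher and 5 at least 16-fold lower. The added 1 limits a fall to a low level and a rise from one alike. These counts can therefore miss large changes of genes low in one group, and they do not compare the sides. Such extreme changes were not counted under the other settings. The groups did not overlap, with every 4 h library above every 0 h library, for 4237 genes (42.6%), and with every 4 h library below for 4238 (42.6%). A passed test or a gap between the groups is the common state of a listed gene. In the authors' deposited table, 19 of the 11184 genes had an FDR of 0.05 or more, where one FDR covers all groups against 0 h. The shares above are therefore shares of the listed genes, nearly all of which passed the authors' own test, and not of the genome.

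The direction counts rest on the authors' scaling. Their effective size was 0.924 of the reads in listed genes at 4 h and 1.33 at 0 h. With the reads in listed genes taken as the library size instead, here called listed-read scaling, the median of all genes moved by -0.43 on the log2 scale. Then 26.9% of the called genes were higher, against 49.9% under the authors' scaling. Changes of at least 2-fold then numbered 865 higher and 2347 lower. The medians of 4 gene lists changed sign under another scaling, as given beside them below. Over the named genes that passed the test, the largest adjusted p was 0.0028 (Cd80), and the next largest was 6.3e-05. Below, ± after a log2 fold change is its SE and ± after a level is the SD over 4 libraries. The counts of each list stand against 42.5% higher and 42.7% lower over all genes tested.

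**Figure D1:**
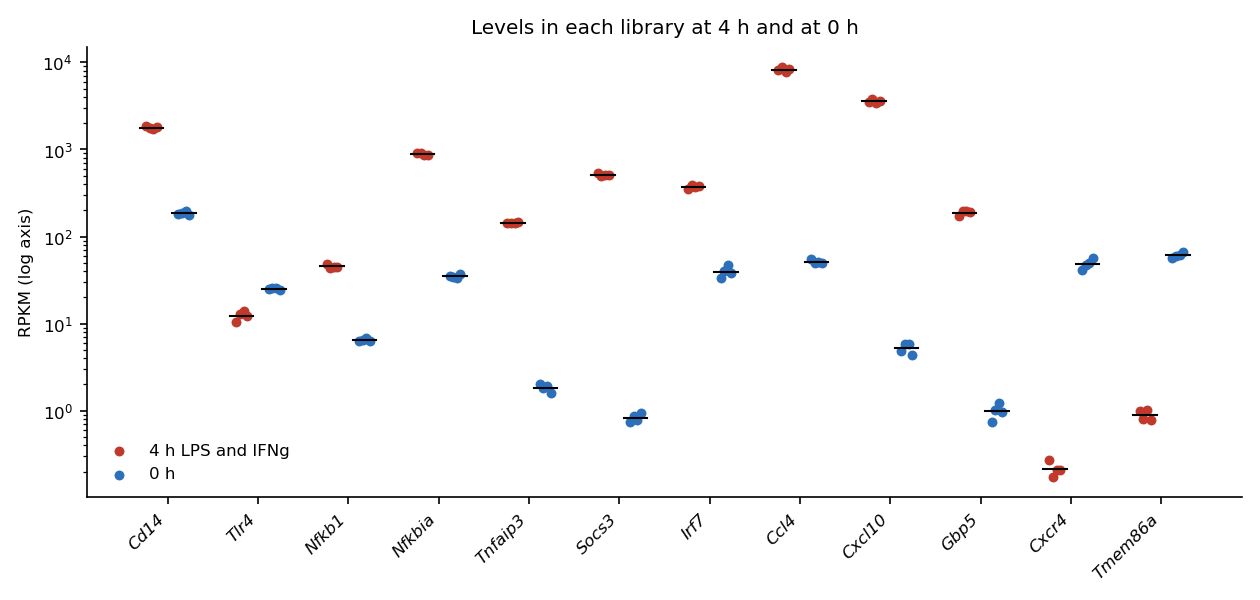
RPKM of 12 genes in each library on a log axis, with the 4 libraries at 4 h in red to the left of the 4 at 0 h in blue and a line at each mean. The replicates of a group lie close together and the groups do not overlap for any of the 12 genes, of which Tlr4, Cxcr4 and Tmem86a were lower at 4 h. Of all genes tested, 42.6% were higher without overlap and 42.6% lower without overlap.

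The 12 largest rises, over genes that averaged 3 log2 units or more in the 8 libraries, included Il1b, Saa3, Ccl5, Cxcl10, Acod1, Nos2, Ptgs2, Il1a, Socs3, Ccl7 and Tnf. Saa3, a serum amyloid A protein of the acute phase, had 10055, 11186, 11298 and 11081 RPKM at 4 h, against 16.9, 13, 10.2 and 13.3 RPKM at 0 h. Per length, its mean level at 4 h was above that of every list member except the ferritin chain Fth1. Ptgs2, the inducible cyclooxygenase, had 459, 434, 471 and 454 RPKM at 4 h, against 0.196, 0.255, 0.188 and 0.263 RPKM at 0 h, a log2 fold change of 8.54 ± 0.15. The levels of each of these genes in the 0 h libraries lay far below the lowest library at 4 h, and the genes were picked by the size of this rise.

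The 12 largest falls by the same rule were Sesn1, Tmem86a, Scd2, Lyl1, St6gal1, Ypel3, Cerk, S1pr1, Arl11, Slc40a1, Zfp36l2 and Rab3il1. Scd2, a fatty acid desaturase, had 1.87, 2.19, 2.3 and 2.01 RPKM at 4 h, against 95.8, 98.2, 84.6 and 98.7 RPKM at 0 h, a log2 fold change of -4.95 ± 0.11. St6gal1, which adds sialic acid to glycoproteins, averaged 1.31 ± 0.0374 RPKM at 4 h against 35.9 ± 1.26 RPKM at 0 h. Cerk, the ceramide kinase, averaged 3.17 ± 0.072 RPKM at 4 h against 57.8 ± 3.52 RPKM at 0 h. Both fell in all 4 libraries below every unstimulated library, as did 42.6% of all genes tested, and both were picked by the size of the fall. Arl11, a small GTPase of the ARF-like family, averaged 7.12 ± 0.102 RPKM at 4 h against 107 ± 1.99 RPKM at 0 h. S1pr1, a sphingosine-1-phosphate receptor, averaged 1.97 ± 0.257 RPKM at 4 h against 40.5 ± 1.17 RPKM at 0 h. Slc40a1 (ferroportin), the iron exporter, had 3.59, 2.89, 2.82 and 2.85 RPKM at 4 h, against 50.2, 50.9, 53.9 and 54.7 RPKM at 0 h. Zfp36l2, a relative of Zfp36 that also binds AU-rich mRNA, averaged 1.24 ± 0.162 RPKM at 4 h against 27.9 ± 2.85 RPKM at 0 h.

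**Figure D2:**
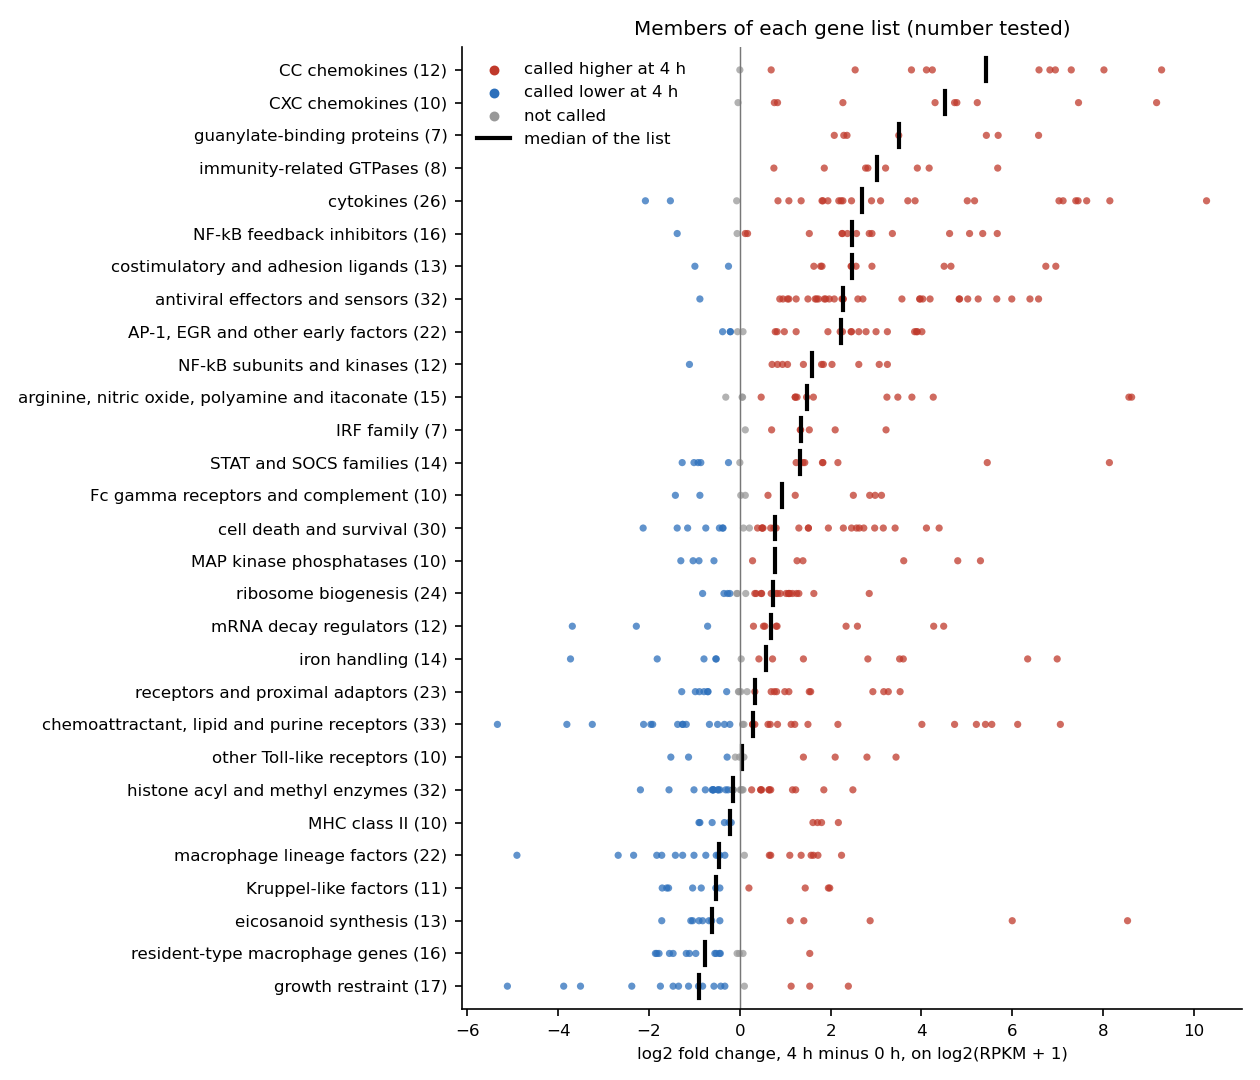
Log2 fold change, 4 h minus 0 h on log2(RPKM + 1), of each tested member of 29 gene lists, with the number tested after each name, members called higher in red, called lower in blue and not called in grey, and a line at the median of each list. Chemokine lists have the highest medians (5.42 and 4.51), and the growth restraint and resident-type lists the lowest (-0.91 and -0.76).

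The receptors and proximal adaptors of LPS and the interferons moved in both directions: of 23 members tested, 12 were higher and 7 lower. Their median log2 fold change was 0.33, against -0.002 over all genes, of which 42.5% were higher and 42.7% lower. The receptor Tlr4 itself was lower, with 10.4, 12.8, 13.9 and 12.3 RPKM at 4 h, against 25.2, 25.7, 25.5 and 24.2 RPKM at 0 h and a log2 fold change of -0.98 ± 0.13. Its co-receptor Cd14 went the other way, with 1863, 1755, 1726 and 1798 RPKM at 4 h, against 180, 186, 196 and 176 RPKM at 0 h and a change of 3.27 ± 0.12. Ly96, the Tlr4 partner, averaged 10.9 ± 0.902 RPKM at 4 h against 9.62 ± 0.586 RPKM at 0 h, and its groups overlapped. The adaptor Myd88 rose to 198 ± 6.14 RPKM at 4 h against 25 ± 0.514 RPKM at 0 h. The kinase Irak2 rose to 63.5 ± 3.33 RPKM at 4 h against 6.17 ± 0.233 RPKM at 0 h, while the kinases Irak1 (-0.79 ± 0.07) and Irak4 (-0.71 ± 0.05) and the adaptor Ticam2 (-0.70 ± 0.05) fell. The chains of the IFNg receptor parted: Ifngr1 fell, at 31.5 ± 0.939 RPKM at 4 h against 59.1 ± 0.891 RPKM at 0 h. Ifngr2 rose, at 93.7 ± 1.8 RPKM at 4 h against 31.9 ± 0.549 RPKM at 0 h. Both chains of the type I interferon receptor were higher, Ifnar1 at 1.56 ± 0.05 and Ifnar2 at 1.08 ± 0.06. Jak2 had the largest change of the list, with 72.8, 77, 80.3 and 76.9 RPKM at 4 h, against 5.39, 5.61, 6.4 and 5.51 RPKM at 0 h and a change of 3.53 ± 0.07. Jak1 had a small one of 0.33 ± 0.07, which was -0.18 and did not pass under listed-read scaling. The median of the list was also -0.18 under that scaling, so its sign rests on the scaling.

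Among the other Toll-like receptors and their accessory proteins, 4 of 10 rose and 3 fell. Their median was 0.04, and -0.48 under listed-read scaling. Those that rose were Tlr2, its partners Tlr1 and Tlr6, which sense bacterial lipoproteins, and Tlr3, a sensor of double-stranded RNA. Tlr2 had 351, 344, 351 and 351 RPKM at 4 h, against 32.1, 29.9, 32 and 31.1 RPKM at 0 h, a log2 fold change of 3.44 ± 0.11. Tlr13, a sensor of bacterial ribosomal RNA in mice, fell by 1.52 on the log2 scale, at 26.4 ± 1.12 RPKM at 4 h against 77.5 ± 6.79 RPKM at 0 h. Tlr9, a sensor of CpG DNA, averaged 1.47 ± 0.0692 RPKM at 4 h against 4.45 ± 0.765 RPKM at 0 h, also lower. Tlr8 and Cd180 did not pass the test.

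Of 12 NF-kB subunits and upstream kinases, 11 were higher and 1 lower (median 1.60). The subunits made as precursors changed most: Nfkb2 averaged 108 ± 8.96 RPKM at 4 h against 11.9 ± 1.07 RPKM at 0 h. Nfkb1 averaged 45.3 ± 2.37 RPKM at 4 h against 6.53 ± 0.268 RPKM at 0 h. Relb (1.84 ± 0.07) and Rel (1.80 ± 0.08) followed, and Rela, the subunit of the classical dimer, changed by 0.83 ± 0.08. Map3k8, the kinase held by the Nfkb1 precursor, had 29.8, 38.1, 35 and 35.1 RPKM at 4 h, against 2.37, 3.01, 3.09 and 2.48 RPKM at 0 h, the largest change of the list at 3.25 ± 0.08. Map3k14, the kinase of the non-canonical pathway that acts on the Nfkb2 precursor, went the other way, at 0.714 ± 0.0364 RPKM at 4 h against 2.71 ± 0.114 RPKM at 0 h.

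The inhibitors of the same pathway mostly rose: 14 of 16 were higher and 1 lower (median 2.47). Tnfaip3 had 142, 143, 144 and 146 RPKM at 4 h, against 2.03, 1.83, 1.92 and 1.59 RPKM at 0 h, a log2 fold change of 5.67 ± 0.07. Nfkbia, the IkB protein that returns NF-kB to the cytoplasm, had 904, 903, 855 and 871 RPKM at 4 h, against 34.8, 34.7, 33.8 and 36.9 RPKM at 0 h, a change of 4.62 ± 0.07. Tnip3, a binding partner of Tnfaip3, rose by 5.35 ± 0.08, Nfkbiz, a nuclear member of the IkB family, by 5.06 ± 0.06, and Irak3, a kinase-like inhibitor of the Myd88 branch, by 2.57 ± 0.08. Sigirr, a receptor-like inhibitor of Toll-like and IL-1 receptors, was the exception, at 0.796 ± 0.0667 RPKM at 4 h against 3.68 ± 0.287 RPKM at 0 h. Otulin, which removes linear ubiquitin, did not pass the test.

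Of 7 interferon regulatory factors tested, 6 were higher (median 1.34). Irf7, the factor that amplifies type I interferon, had 356, 393, 368 and 380 RPKM at 4 h, against 33.3, 40, 46.9 and 38.3 RPKM at 0 h, a log2 fold change of 3.22 ± 0.08. Irf1, a factor induced early by interferon, averaged 67.9 ± 4.02 RPKM at 4 h against 15.1 ± 1.1 RPKM at 0 h. Irf8, a factor of macrophage identity, averaged 55.6 ± 3.94 RPKM at 4 h against 21.3 ± 1.23 RPKM at 0 h. Irf5, which works downstream of Myd88, averaged 128 ± 5.51 RPKM at 4 h against 50.2 ± 0.219 RPKM at 0 h. Irf3, which waits in the cytoplasm until it is activated, averaged 9.31 ± 0.182 RPKM at 4 h against 8.47 ± 0.269 RPKM at 0 h and did not pass. It passed as higher under 5 alternatives (0.12 to 0.22) and as lower (-0.36) under listed-read scaling. The STAT and SOCS genes were mixed, with 8 of 14 higher and 5 lower (median 1.32). Stat2 and Stat3 rose by 1.83 ± 0.10 and 1.82 ± 0.06. Stat6, which carries the signal of IL-4, was lower at 25.7 ± 1.32 RPKM at 4 h against 47.4 ± 1.67 RPKM at 0 h. Stat4, a mediator of IL-12 signals, was lower at 1.24 ± 0.0967 RPKM at 4 h against 3.25 ± 0.177 RPKM at 0 h. The SOCS genes split. The feedback inhibitor Socs3 stood at 514 ± 19.4 RPKM at 4 h against 0.833 ± 0.0931 RPKM at 0 h. Socs1, which blocks the Jak kinases, stood at 61.5 ± 8.03 RPKM at 4 h against 0.429 ± 0.199 RPKM at 0 h. Socs5 and Socs6 were lower, with changes of -1.01 ± 0.06 and -1.27 ± 0.06.

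The AP-1, EGR and other early factors had 17 of 22 members higher and 3 lower (median 2.23). The leading members were Cebpd (4.01 ± 0.15), Batf2 (3.91 ± 0.09), Batf (3.89 ± 0.08) and Junb (3.85 ± 0.11). Cebpb, the C/EBP factor of the acute-phase response, averaged 48.5 ± 9.52 RPKM at 4 h against 5.13 ± 0.469 RPKM at 0 h. Jun, a partner of Fos, averaged 25.6 ± 2.07 RPKM at 4 h against 26.4 ± 1.42 RPKM at 0 h. Jund averaged 8.81 ± 1.77 RPKM at 4 h against 8.29 ± 1.19 RPKM at 0 h, and neither passed the test. Of 11 Kruppel-like factors, 4 were higher and 7 lower (median -0.53). Klf6 and Klf8 rose by 1.98 ± 0.08 and 1.95 ± 0.06. Klf2, a restraint on inflammatory genes, fell to 2.45 ± 0.278 RPKM at 4 h against 9.27 ± 0.367 RPKM at 0 h. Among 10 MAP kinase phosphatases, 6 were higher and 4 lower (median 0.77). Dusp1, which acts mainly on p38 and JNK, had 144, 168, 158 and 159 RPKM at 4 h, against 3.24, 2.91, 3.07 and 2.84 RPKM at 0 h, a log2 fold change of 5.30 ± 0.07. Dusp2 and Dusp16 rose by 4.80 ± 0.10 and 3.61 ± 0.06. Dusp6 and Dusp7, which act on ERK, were lower, at -1.30 ± 0.13 and -1.03 ± 0.07.

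The highest list medians were those of the chemokines. Of 26 cytokines tested, 23 were higher and 2 lower (median 2.68), and in the lists of chemokines 11 of 12 CC members (median 5.42) and 9 of 10 CXC members (median 4.51) were higher and none lower. Il1rn, the antagonist of the IL-1 receptor, had 380, 426, 474 and 433 RPKM at 4 h, against 1.46, 1.42, 1.41 and 1.53 RPKM at 0 h, a log2 fold change of 7.45 ± 0.11. Il27, a cytokine that acts on T cells, averaged 293 ± 15.7 RPKM at 4 h against 0.741 ± 0.113 RPKM at 0 h. Il10, an inhibitor of macrophage activation, averaged 71.1 ± 9.59 RPKM at 4 h against 1.22 ± 0.236 RPKM at 0 h. Il12b, a subunit shared by IL-12 and IL-23, averaged 133 ± 10.9 RPKM at 4 h against 0.0179 ± 0.0133 RPKM at 0 h. Il6, a cytokine of the acute phase, averaged 143 ± 10.9 RPKM at 4 h against 0.0383 ± 0.0167 RPKM at 0 h. Tnfsf10 (TRAIL) averaged 62.8 ± 10.2 RPKM at 4 h against 0.752 ± 0.126 RPKM at 0 h. Il15, which sustains natural killer cells, averaged 187 ± 22.6 RPKM at 4 h against 13.4 ± 1.53 RPKM at 0 h. The cytokines that fell were Il16, at 0.429 ± 0.0514 RPKM at 4 h against 5.05 ± 0.262 RPKM at 0 h, and Tnfsf14 (LIGHT). The second of these averaged 0.7 ± 0.111 RPKM at 4 h against 3.93 ± 0.449 RPKM at 0 h.

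Ccl4 and Ccl3, chemokines that draw monocytes and T cells, reached the highest levels of the chemokines, and how the authors' counting divides reads between these related genes was not checked. Ccl4 had 8153, 8748, 7771 and 8337 RPKM at 4 h, against 55.2, 50, 50.7 and 49.8 RPKM at 0 h. Ccl3 averaged 7644 ± 383 RPKM at 4 h against 78.6 ± 7.67 RPKM at 0 h. Ccl2, which draws monocytes through Ccr2, averaged 3514 ± 299 RPKM at 4 h against 27.8 ± 6.14 RPKM at 0 h. Ccl12, a mouse relative of Ccl2, averaged 1130 ± 124 RPKM at 4 h against 9.07 ± 2.03 RPKM at 0 h. Ccl17 was listed at 0 in all 4 libraries at 0 h and averaged 17.9 ± 0.64 RPKM at 4 h. Cxcl2, which draws neutrophils, averaged 344 ± 36 RPKM at 4 h against 0.962 ± 0.197 RPKM at 0 h. The Cxcr3 ligand Cxcl9 averaged 22.2 ± 3.43 RPKM at 4 h against 0.17 ± 0.0725 RPKM at 0 h. Its level per length was well below that of Cxcl10, another Cxcr3 ligand, at 3572 ± 170 RPKM at 4 h against 5.18 ± 0.744 RPKM at 0 h. Ccl6, which was already high, averaged 314 ± 18.4 RPKM at 4 h against 313 ± 7.68 RPKM at 0 h and did not pass the test.

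The receptors for chemoattractants, lipids and purines moved in both directions: of 33 tested, 17 were higher and 14 lower, 11 of them at least 2-fold higher and 10 at least 2-fold lower. Over all genes tested, 42.5% were higher and 42.7% lower, and 13.8% and 11.5% by at least 2-fold. The median of all genes was -0.002. The median of these receptors was 0.28, and -0.20 under listed-read scaling. Cxcr4, the receptor of Cxcl12, had 0.274, 0.175, 0.208 and 0.209 RPKM at 4 h, against 40.8, 47.2, 50.3 and 56.7 RPKM at 0 h, a log2 fold change of -5.34 ± 0.11. Every library at 4 h was under 1 RPKM, and this was the largest fall of any list member. Gpr34, a lysophospholipid receptor, averaged 0.363 ± 0.0855 RPKM at 4 h against 12.1 ± 1.94 RPKM at 0 h. Gpr183, a receptor of oxysterols, averaged 1.52 ± 0.0633 RPKM at 4 h against 9.99 ± 1.15 RPKM at 0 h. Gpr65, a proton-sensing receptor, averaged 4.86 ± 0.304 RPKM at 4 h against 21.7 ± 1.29 RPKM at 0 h. P2rx7, the ATP-gated channel upstream of the inflammasome, fell to 2.77 ± 0.194 RPKM at 4 h against 13.3 ± 0.9 RPKM at 0 h.

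Hcar2, the receptor of niacin and hydroxybutyrate, had 191, 207, 198 and 202 RPKM at 4 h, against 0.519, 0.636, 0.552 and 0.331 RPKM at 0 h, a log2 fold change of 7.06 ± 0.12. Gpr84, a receptor of medium-chain fatty acids, averaged 531 ± 21.1 RPKM at 4 h against 6.83 ± 1.98 RPKM at 0 h. Ccrl2, an atypical receptor that binds chemerin, averaged 254 ± 13 RPKM at 4 h against 4.47 ± 0.727 RPKM at 0 h. The adenosine receptor Adora2b rose to 68.9 ± 1.19 RPKM at 4 h against 0.64 ± 0.0735 RPKM at 0 h. The related Adora2a rose to 15.3 ± 1.24 RPKM at 4 h against 0.0116 ± 0.00498 RPKM at 0 h. Among receptors of formyl peptides, Fpr1 averaged 91.8 ± 6.13 RPKM at 4 h against 1.53 ± 0.337 RPKM at 0 h. Fpr2 averaged 54.9 ± 5.53 RPKM at 4 h against 1.12 ± 0.287 RPKM at 0 h. Among the chemokine receptors, Ccr2 was lower, at 5 ± 0.855 RPKM at 4 h against 12.7 ± 2.3 RPKM at 0 h. Ccr1 was higher, by 1.13 ± 0.11. C5ar1, the receptor of complement C5a, averaged 122 ± 8.66 RPKM at 4 h against 117 ± 8.6 RPKM at 0 h and did not pass.

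**Figure D3:**
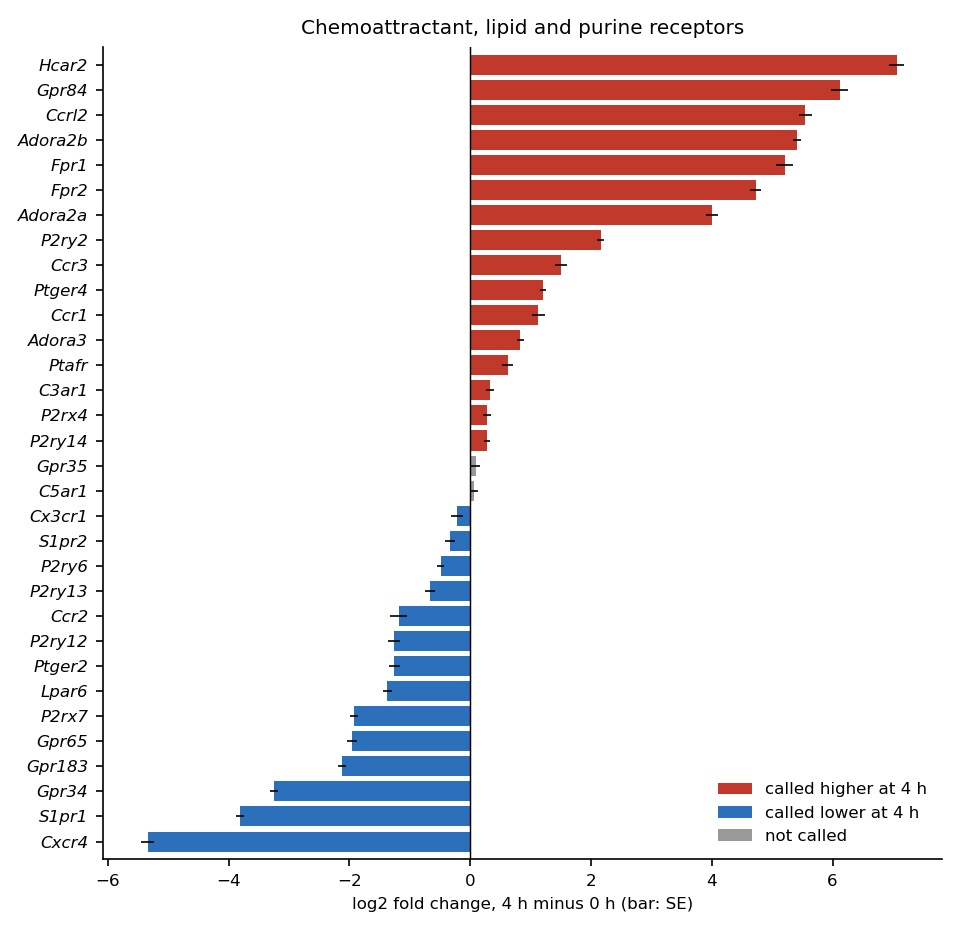
Log2 fold change, 4 h minus 0 h on log2(RPKM + 1), of 32 of the 33 tested chemoattractant, lipid and purine receptors, with bars for the SE of the fit, called higher in red, called lower in blue and not called in grey. The values run from Hcar2 at 7.06 to Cxcr4 at -5.34, with 16 of the genes shown called higher and 14 called lower.

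Cell-autonomous defence genes rose almost without exception. All 7 guanylate-binding proteins tested (median 3.50) and all 8 immunity-related GTPases tested (median 3.02) were higher, and so were 31 of 32 antiviral effectors and sensors (median 2.28). Gbp5, a GTPase that recruits inflammasomes to bacteria, had 173, 196, 194 and 190 RPKM at 4 h, against 0.732, 1.02, 1.22 and 0.967 RPKM at 0 h, a log2 fold change of 6.58 ± 0.11. Gbp2 averaged 872 ± 76 RPKM at 4 h against 16 ± 1.8 RPKM at 0 h. Iigp1, which attacks the vacuoles of intracellular parasites, averaged 178 ± 34.9 RPKM at 4 h against 2.45 ± 0.484 RPKM at 0 h. Igtp, of the same family, averaged 328 ± 16.6 RPKM at 4 h against 17.4 ± 2.12 RPKM at 0 h. Rsad2 (viperin) averaged 2463 ± 256 RPKM at 4 h against 25.2 ± 5.87 RPKM at 0 h. Cmpk2, its genomic neighbour, averaged 1907 ± 206 RPKM at 4 h against 22 ± 4.02 RPKM at 0 h. Ifit1, which binds viral RNA caps, averaged 1397 ± 148 RPKM at 4 h against 21.2 ± 3.51 RPKM at 0 h. Tmem173 (STING), the adaptor of DNA sensing, was the exception, with 22.3, 23.1, 22.8 and 23.1 RPKM at 4 h, against 41.4, 42.4, 41.5 and 46.5 RPKM at 0 h and a change of -0.88 ± 0.06. The enzyme ahead of it, Mb21d1 (cGAS), rose by 1.97 ± 0.08.

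Of 13 costimulatory and adhesion ligands, 11 were higher and 2 lower (median 2.46). Cd69, an early activation antigen, had 136, 206, 161 and 168 RPKM at 4 h, against 0.369, 0.346, 0.329 and 0.309 RPKM at 0 h. Cd40, the receptor of the T cell ligand Cd40l, averaged 405 ± 35.6 RPKM at 4 h against 2.82 ± 0.423 RPKM at 0 h. Cd274 (PD-L1), the inhibitory ligand of T cells, rose by 4.65 ± 0.11 and Icam1 by 4.50 ± 0.06. The ligands of Cd28 parted: Cd86 rose, at 23.8 ± 2.81 RPKM at 4 h against 3.2 ± 0.331 RPKM at 0 h. Cd80 fell, at 6.02 ± 0.423 RPKM at 4 h against 7.33 ± 0.178 RPKM at 0 h. Havcr2 (TIM-3) was lower at 4.56 ± 0.32 RPKM at 4 h against 10.1 ± 0.257 RPKM at 0 h. Among 10 MHC class II genes tested, the 4 that rose were H2-Ab1, H2-Eb1, H2-Aa and the invariant chain Cd74, by 2.17 ± 0.11, 1.80 ± 0.16, 1.71 ± 0.12 and 1.61 ± 0.14. The other 6 were lower, among them H2-DMa, the peptide editor, at 7.83 ± 0.505 RPKM at 4 h against 15.5 ± 0.904 RPKM at 0 h. Rfxap, a subunit of the factor that binds class II promoters, averaged 2.22 ± 0.244 RPKM at 4 h against 4.89 ± 0.166 RPKM at 0 h. The class II activator Ciita was not analysed here. Of 10 Fc gamma receptor and complement genes, 6 were higher and 2 lower (median 0.92): Fcgr1, the high-affinity receptor, and Fcgr2b, the inhibitory one, rose by 2.86 ± 0.07 and 2.98 ± 0.06, and complement C3 by 3.12 ± 0.08.

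Enzymes of arginine use, nitric oxide, polyamines and itaconate were higher in 12 of 15 cases and lower in none (median 1.47). Acod1, which makes itaconate, had 3405, 3290, 3231 and 3321 RPKM at 4 h, against 8.97, 7.59, 6.29 and 6.76 RPKM at 0 h, a log2 fold change of 8.63 ± 0.08. Nos2, which makes nitric oxide from arginine, had 418, 418, 462 and 443 RPKM at 4 h, against 0.114, 0.187, 0.124 and 0.175 RPKM at 0 h. The arginine transporter Slc7a2 averaged 14 ± 1.24 RPKM at 4 h against 0.0831 ± 0.027 RPKM at 0 h. Gch1, the first enzyme of the cofactor of Nos2, rose to 102 ± 6.57 RPKM at 4 h against 8.24 ± 0.49 RPKM at 0 h. Ass1, which recycles citrulline to arginine, rose to 85.5 ± 2.14 RPKM at 4 h against 8.21 ± 1.15 RPKM at 0 h. Odc1, the first enzyme of polyamine synthesis, rose to 208 ± 15.9 RPKM at 4 h against 9.96 ± 1.18 RPKM at 0 h. Arg1, which competes for arginine, averaged 1.26 ± 0.382 RPKM at 4 h against 1.95 ± 1.23 RPKM at 0 h and did not pass the test.

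Eicosanoid genes moved in both directions, with 5 of 13 higher and 8 lower (median -0.62). Those that rose lie on the path to prostaglandin E2: Pla2g4a, which frees arachidonic acid, at 2.87 ± 0.09, Ptgs2, and the synthases Ptges, Ptges2 (1.41 ± 0.07) and Ptges3 (1.11 ± 0.06). Ptges had 86, 80.9, 90.3 and 86.7 RPKM at 4 h, against 0.474, 0.315, 0.293 and 0.349 RPKM at 0 h, a change of 6.00 ± 0.06. The constitutive cyclooxygenase Ptgs1 (-1.04 ± 0.07), which acts at the same step as Ptgs2, the leukotriene enzymes Alox5 (-0.90 ± 0.09) and Ltc4s (-1.08 ± 0.12), and Hpgd, which breaks prostaglandins down, were lower. Hpgd averaged 0.407 ± 0.14 RPKM at 4 h against 3.66 ± 0.706 RPKM at 0 h. In the iron list 8 of 14 were higher and 5 lower (median 0.57), against 6 higher and 6 lower under listed-read scaling (median 0.06). Lcn2, which binds bacterial siderophores, had 179, 171, 195 and 185 RPKM at 4 h, against 0.298, 0.524, 0.476 and 0.468 RPKM at 0 h. Hp (haptoglobin) averaged 146 ± 11.8 RPKM at 4 h against 0.822 ± 0.173 RPKM at 0 h. Both are also stored by granulocytes, whose markers summed to 55.4 to 84.2 RPKM at 4 h, against 10.4 to 16.1 RPKM at 0 h, and the part of such cells in these levels was not tested. Slc11a2, an iron importer, rose by 2.82 ± 0.05, the exporter Slc40a1 fell as above, and Ncoa4, the receptor that sends ferritin to lysosomes, fell to 5.59 ± 0.415 RPKM at 4 h against 22.3 ± 2.66 RPKM at 0 h.

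Among 12 regulators of mRNA decay, 9 were higher and 3 lower (median 0.68), and the Zfp36 family split. Zfp36 had 351, 327, 324 and 335 RPKM at 4 h, against 12.7, 13.8, 14.9 and 14.4 RPKM at 0 h, a log2 fold change of 4.49 ± 0.13. Zfp36l1, by contrast, had 1.47, 1.43, 1.49 and 1.38 RPKM at 4 h, against 9.07, 10.5, 13.6 and 10.8 RPKM at 0 h, a change of -2.28 ± 0.09, and Zfp36l2 fell as given above. The groups did not overlap for any of the 3 genes, as for 42.6% of all genes tested on the higher side and 42.6% on the lower. Zc3h12a (regnase-1), an endonuclease that cuts cytokine mRNA, rose by 4.27 ± 0.07. Of 30 cell death and survival genes, 21 were higher and 7 lower (median 0.78). The Bcl2a1 copies led the rises, Bcl2a1d by 4.39 ± 0.11 and Bcl2a1a by 4.11 ± 0.14, but they are near-identical and the split of reads between them is uncertain. Casp4, the sensor caspase of intracellular LPS, averaged 49.5 ± 4.68 RPKM at 4 h against 3.72 ± 0.157 RPKM at 0 h. The inflammasome sensor Nlrp3 averaged 120 ± 13.4 RPKM at 4 h against 14.4 ± 0.46 RPKM at 0 h. Fas, a death receptor, averaged 58.3 ± 6.27 RPKM at 4 h against 5.6 ± 0.139 RPKM at 0 h. The BH3-only genes Bmf, Bbc3 and Pmaip1, which promote apoptosis, were lower. Bmf averaged 0.0359 ± 0.00813 RPKM at 4 h against 3.56 ± 0.595 RPKM at 0 h. Bbc3 averaged 3.8 ± 0.25 RPKM at 4 h against 11.6 ± 1.51 RPKM at 0 h, and Pmaip1 0.98 ± 0.131 RPKM at 4 h against 3.4 ± 0.295 RPKM at 0 h.

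Of 24 ribosome biogenesis genes, 17 were higher and 4 lower (median 0.74), with Wdr43 and Rrs1 rising by 2.85 ± 0.06 and 1.63 ± 0.08. Genes of growth restraint went the other way: 13 of 17 were lower and 3 higher (median -0.91). Tsc22d3 (GILZ), a glucocorticoid-induced inhibitor, had 1.42, 1.56, 1.54 and 1.57 RPKM at 4 h, against 25.9, 27.5, 28 and 29.8 RPKM at 0 h, a log2 fold change of -3.51 ± 0.07. Txnip, which limits glucose uptake, averaged 40.1 ± 1.44 RPKM at 4 h against 213 ± 17.9 RPKM at 0 h. Cdkn2c, an inhibitor of the cell cycle kinases, averaged 5.1 ± 0.627 RPKM at 4 h against 19.4 ± 1.24 RPKM at 0 h. Cdkn1a (p21), another such inhibitor, rose instead, with 790, 737, 717 and 741 RPKM at 4 h, against 146, 141, 140 and 140 RPKM at 0 h and a change of 2.39 ± 0.08.

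Genes of tissue-resident macrophages were lower in 12 of 16 cases and higher in 1 (median -0.76). Gas6, a bridge to apoptotic cells, had 128, 122, 126 and 125 RPKM at 4 h, against 432, 450, 489 and 467 RPKM at 0 h, a log2 fold change of -1.86 ± 0.07. Its receptor Mertk averaged 3.79 ± 0.201 RPKM at 4 h against 15.5 ± 1.37 RPKM at 0 h. Axl, the other receptor of Gas6 on these cells, was the member that rose, at 13.6 ± 0.863 RPKM at 4 h against 4.08 ± 0.922 RPKM at 0 h. Cd163, a scavenger of haemoglobin, averaged 0.47 ± 0.0319 RPKM at 4 h against 4.24 ± 0.516 RPKM at 0 h. The lineage factors were also mostly lower, with 13 of 22 lower and 8 higher (median -0.46). Lyl1, a basic helix-loop-helix factor, averaged 0.667 ± 0.106 RPKM at 4 h against 48.9 ± 2.56 RPKM at 0 h. Cebpa, the myeloid C/EBP factor, averaged 1.8 ± 0.256 RPKM at 4 h against 16.9 ± 1.34 RPKM at 0 h. Csf1r, the receptor that keeps macrophages alive, averaged 183 ± 15.3 RPKM at 4 h against 371 ± 32.1 RPKM at 0 h. Spi1 (PU.1), the master factor of the lineage, went the other way, with 259, 236, 235 and 235 RPKM at 4 h, against 79.6, 79.7, 80.6 and 81.6 RPKM at 0 h and a change of 1.57 ± 0.08, and Tfec rose by 2.24 ± 0.06.

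Enzymes that write, remove or read histone acyl and methyl marks had 11 of 32 members higher, 14 lower and 7 not passing (median -0.14). Under listed-read scaling 6 were higher and 21 lower (median -0.50), and with the length trend removed 14 were higher and 12 lower (median 0.03), so the balance rests on the processing. Setdb2, a histone methyltransferase, averaged 22.4 ± 1.29 RPKM at 4 h against 3.16 ± 0.149 RPKM at 0 h. Hdac1, a deacetylase, averaged 62 ± 3.41 RPKM at 4 h against 16.4 ± 0.609 RPKM at 0 h. Hdac5 and the mitochondrial deacylase Sirt3 were lower. Hdac5 averaged 0.925 ± 0.0844 RPKM at 4 h against 7.77 ± 0.458 RPKM at 0 h, and Sirt3 1.94 ± 0.1 RPKM at 4 h against 7.67 ± 0.539 RPKM at 0 h. The acyltransferases Ep300 and Crebbp did not pass the test. Ep300 averaged 4.11 ± 0.36 RPKM at 4 h against 4.66 ± 0.564 RPKM at 0 h, and Crebbp 1.21 ± 0.121 RPKM at 4 h against 1.19 ± 0.0731 RPKM at 0 h. Of 12 mitochondrially encoded transcripts, 2 were lower and none higher (median -0.17), against 11 lower and none higher under listed-read scaling (median -0.69).

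The levels at 4 h were set beside the later libraries of cells stimulated without lactic acid, 4 at each of 8, 16 and 24 h. Of the 1372 genes at least 2-fold higher at 4 h, 1016 (74.1%) had their highest mean at 4 h and 288 at 8 h. At 24 h 1052 (76.7%) were within 2-fold of the 0 h level or below it. Of the 1146 at least 2-fold lower, 811 (70.8%) had their lowest mean at 4 h, and 909 (79.3%) were within 2-fold of the 0 h level or above it at 24 h. Both sets were picked by the same libraries at 4 h and 0 h, which favours an extreme mean at 4 h. The same shares over all genes tested were not computed, so how brief the response was is not tested by these counts. Cd69 averaged 0.338 RPKM at 0 h, 168 RPKM at 4 h, 10.9 RPKM at 8 h and 2.37 RPKM at 24 h. Lcn2 averaged 0.441 RPKM at 0 h, 182 RPKM at 4 h, 588 RPKM at 8 h and 531 RPKM at 24 h. Txnip averaged 213 RPKM at 0 h, 40.1 RPKM at 4 h, 25.7 RPKM at 8 h and 321 RPKM at 24 h, whereas Fcrls, an Fc receptor-like gene of resident macrophages, averaged 182, 61.3, 48.3 and 13.4 RPKM at these times.

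**Figure D4:**
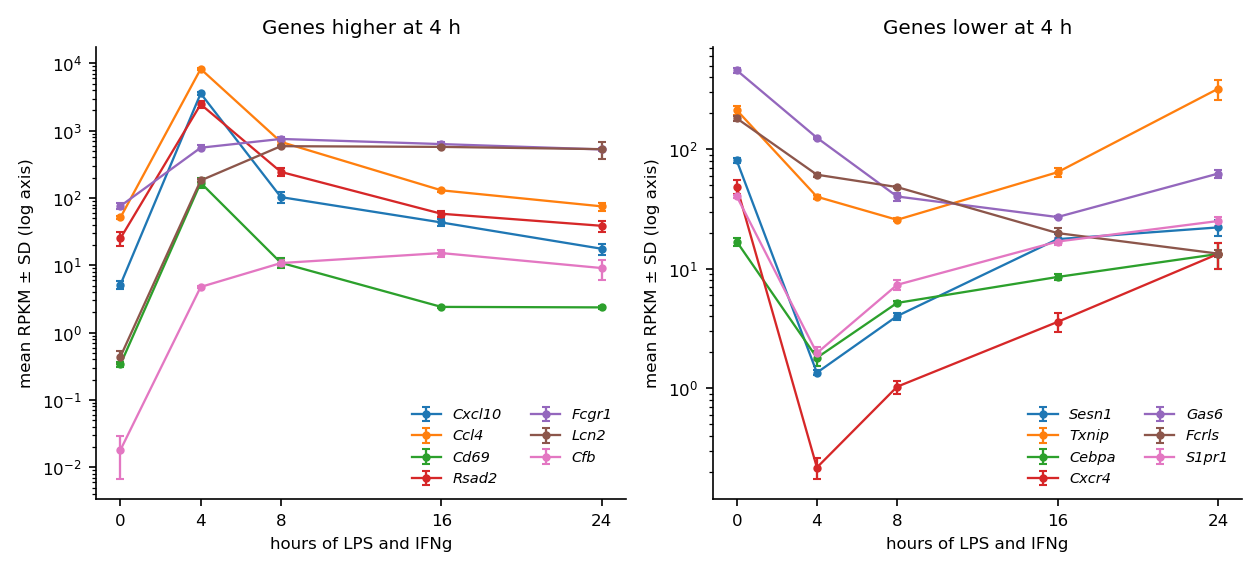
Mean RPKM with SD over 4 libraries, on a log axis, at 0, 4, 8, 16 and 24 h of LPS and IFNg for 7 genes that were higher at 4 h on the left and 7 that were lower on the right. Cxcl10, Ccl4, Cd69 and Rsad2 are highest at 4 h, Lcn2 and Cfb are higher at 8 h than at 4 h, and Sesn1, Cebpa, Cxcr4 and S1pr1 are lowest at 4 h.

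Peaks of histone H3 lysine 18 lactylation (H3K18la) and acetylation (H3K18ac) were deposited for macrophages stimulated for 24 h (M1) and unstimulated ones (M0), with 1 library each and so no replicate check. RefSeq gene spans of GRCm38.p6, the same assembly as mm10 of the files, were at hand for 97.2% of the genes at least 2-fold higher, 96.8% of those at least 2-fold lower and 96.8% of all tested. Of the genes at least 2-fold lower at 4 h, 76.2% had an M1 H3K18la peak in their span and 97.8% an M0 one. For the genes at least 2-fold higher these shares were 82.8% in M1 and 85.0% in M0, and for all genes tested 78.4% in M1 and 94.2% in M0. The M1 list held 16139 H3K18la peaks in all and the M0 list 21885, and the median span was 21734 bases for the higher genes, 25568 for the lower and 22212 for all. For H3K18ac the shares were 93.0% in M1 and 90.6% in M0 for the higher genes, and 94.8% in M1 and 99.0% in M0 for the lower ones. Over all genes tested they were 94.3% in M1 and 96.0% in M0. The lower genes were picked for a level at 0 h from which they could fall, while the higher genes could be low there. Genes matched for their level at 0 h were not compared, so the part of this picking in the M0 shares of the 2 sets was not tested.

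At the printed start sites, the Cxcl10 start lay in an H3K18la and an H3K18ac peak in M1 and in neither in M0. The Cxcr4 start lay in no peak in M1 and in a peak of both marks in M0. At Tmem86a the M1 list held an H3K18ac peak over the start and no H3K18la peak, and the M0 lists held both. The starts of Nfkbia, Socs3, Gbp5 and Ifit1 lay in peaks of both marks in M1 and in M0. At Gbp5 the H3K18la peak was 7655 bases long with the authors' fold enrichment of 15.3 in M1, and 655 bases long with an enrichment of 3.52 in M0. The M1 chromatin was taken at 24 h and not at 4 h, so the order of the changes was not tested.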

How the data were processed

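Primary macrophages were grown from mouse bone marrow, and RNA was sequenced from 32 libraries in 8 groups of 4, of which the groups at 4 h and 0 h are compared. Groups and replicate numbers come from the labels. The deposited table holds RPKM, scaled by the authors to an effective size of each library. Beside them stand the authors' log2 fold changes against 0 h and 1 p-value and FDR per gene for all groups together. The submitters' processing notes name HISAT2 2.1.0, featureCounts 1.5.0-p1, edgeR, Bowtie2 2.2.6, SAMtools 0.1.19 and MACS2 2.2.1 with builds mm10 and GRCm38, with no role or order. The deposited peak lists give, per library, the authors' fold enrichment (a ratio over the caller's background), -log10 p, -log10 q and a score. A table of spike-in factors was not used here.

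The minimum for a test was 1 RPKM in 4 or more of the 32 libraries. It left out 1242 listed genes and kept 9942. Values were fitted as log2(RPKM + 1) with limma-trend, two-sided (limma 3.58.1, R 4.3.3). The model gave each of the 8 groups its mean, left 24 residual degrees of freedom, and was adjusted by Benjamini-Hochberg over all genes tested. An adjusted p under 0.05 counts as higher or lower. The script was tested on simulated data with known changes. The planned edgeR and DESeq2 tests were not run, since the values are RPKM. Whole reads were recovered from them for 99.91% of values (within 0.05 reads) and were tested with limma voom, an alternative chosen after seeing the data. Replicates differed by more than sampling noise, with a chi-square per degree of freedom of at least 6.4 between libraries of a group. Alternatives were another pseudocount, filters, scalings, a length correction, a replicate block and leaving out each library. Promoter windows and gene spans come from RefSeq. Overlap of peaks with gene spans (at least 1 base) was added after the windows proved incomplete.

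The members and gene lists were chosen with earlier results of these data known. The text names list members by role, up to 4 called members per list with the largest change, members that go against the rest, and the 12 largest rises and 12 largest falls over genes that averaged 3 log2 units or more. It always names Actb, Ldha, Vegfa, Arg1, Cxcl10, Nos2, Il6, Il1b and Tnf. The genes of the read shares, those followed to later times and the promoters shown were chosen after their values were seen. A few genes that meet these rules are not reported here.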

Additional observations from a re-analysis of the deposited data

Results flagged for a closer look

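Among the 209 named genes, 417 groups of 4 libraries were examined for 1 library far from the other 3, by Dixon's ratio of the gap to the range at its 95% critical value. Of these, 25 groups were past it, and chance passes about 1 in 20 groups. Leaving out a library turned the direction of no named gene that had passed the test. Jund, which had not passed, was at -0.05 on the log2 scale without 4 h replicate 1, against 0.07 with it.

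In 4 h replicate 1, the C/EBP factor Cebpb stood at 62.7 RPKM, against 42.6 to 44.4 RPKM in the other 3 libraries at 4 h, and Jund at 11.4 RPKM, against 7.67 to 8.13 RPKM. The same library was above the others for Il1b (2102 RPKM, others 1986 to 1998), Spi1 (259 RPKM, others 235 to 236), Fos (21.1 RPKM, others 19.8 to 19.9), Adora2a (17.2 RPKM, others 14.5 to 14.9) and Slc40a1 (3.59 RPKM, others 2.82 to 2.89), and below them for Mertk (3.49 RPKM, others 3.86 to 3.93). In 4 h replicate 2, Rel (16 RPKM, others 15 to 15.1) and Gpr34 (0.491 RPKM, others 0.31 to 0.333) were above, while Tlr2 (344 RPKM, others 351) and Dusp16 (34.5 RPKM, others 35.4 to 35.6) were below. In 4 h replicate 3, Tnfsf14 was above at 0.866 RPKM (others 0.633 to 0.654).

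At 0 h, replicate 1 stood below the other libraries for the chemokine receptor Ccr2 (9.23 RPKM, others 13.4 to 14.2), the kinase Irak4 (8.26 RPKM, others 9.09 to 9.25) and Rab3il1 (43.3 RPKM, others 43.9 to 44). It stood above them for Alox5 (5.63 RPKM, others 4.33 to 4.38) and Cdkn1a (146 RPKM, others 140 to 141). Replicate 2 was above the others for Il1b (0.752 RPKM, others 0.581 to 0.599) and below for Ccl5 (3.29 RPKM, others 4.16 to 4.19). Replicate 4 was above for Ccrl2 (5.54 RPKM, others 3.96 to 4.23), Sigirr (4.11 RPKM, others 3.49 to 3.59), Rfxap (5.14 RPKM, others 4.8 to 4.84) and Adora2a (0.019 RPKM, others 0.00849 to 0.00959), and below for Ccr1 (16.3 RPKM, others 17.8 to 17.9).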

How the results depend on the processing

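Leaving out each library in turn gave 4132 to 4188 genes higher, 4165 to 4201 lower, 1360 to 1394 at least 2-fold higher and 1132 to 1163 at least 2-fold lower, and no called named gene changed direction or lost its call. Of the uncalled ones, 3 turned: Cd180 (-0.02 to 0.01, without replicate 3 of either group), Jund (-0.05 to 0.15, without 4 h replicate 1) and Crebbp (-0.02 to 0.05, without replicate 1 of either group). In one such fit Arg1 came to pass (-0.54, without 0 h replicate 4). Counts moved by over 1.5 times with a pseudocount of 0.1 (1829 at least 2-fold lower), with limma voom on the recovered reads (1940 at least 2-fold lower), and under listed-read scaling (2335 higher, 865 at least 2-fold higher, 2347 at least 2-fold lower). That scaling turned the list medians of receptors and proximal adaptors (-0.18), other Toll-like receptors (-0.48) and chemoattractant, lipid and purine receptors (-0.20). It also turned Jak1 (-0.18) and the uncalled genes Ly96 (-0.33), Irf3 (-0.36), Jund (-0.41), C5ar1 (-0.47), Crebbp (-0.29) and Adgre1 (-0.42), ended the calls of Fth1 and Ldha, and made Mpeg1, Tlr8, Cd180, Otulin, Jun, Ccl6, Ep300 and Arg1 pass as lower (-0.52 to -0.67). It shifts every gene by construction. The median of the other Toll-like receptors was -0.01 with no filter, and that of the histone enzymes 0.03 with the length trend removed, where the uncalled Cd180 (0.12), Jun (0.04) and Ep300 (0.03) also turned and Crebbp passed as higher (0.19); the cause was not tested. Of 209 named genes, 192 kept their direction and call under every alternative. edgeR and DESeq2 were not run.

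The labels do not say whether the replicate numbers pair the libraries. Deviations of same-numbered libraries correlated by -0.138, 0.109, 0.176 and -0.058, and 1 number of 4 matched best with itself. These values cannot decide whether same-numbered libraries share a mouse or culture. A replicate block was fitted to the 8 libraries at 0 h and 4 h alone. It gave 4390 genes higher and 4392 lower, 1372 and 1146 of them by at least 2-fold. Under it, Ly96 (0.16), Irf3 (0.12), Adgre1 (0.11), Mpeg1 (-0.15) and Tlr8 (-0.10) came to pass. All of these but Tlr8 also came to pass in the same 8 libraries without a block. The depth of the 8 libraries was 61.3 M reads or more, and how far it limits the calls of low genes was not tested.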

Other observations

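The genes that took the most reads differed between the groups. At 4 h the 10 leading genes were Fth1, Ctsb, Lyz2, Rsad2, Actb, Ctsd, Acod1, Eef1a1, Cxcl10 and Spp1, with 10.3% ± 0.1 of the reads in listed genes (SD, n = 4). At 0 h the 10 leading genes were Lyz2, Ctsb, Ctsd, Fth1, Psap, Ftl1, Eef1a1, Gpnmb, Mpeg1 and Sepp1, with 13.4% ± 0.5 (SD, n = 4). Rsad2, an antiviral enzyme, alone took 0.98% ± 0.09 of the reads at 4 h, Acod1 0.80% ± 0.03 and Cxcl10 0.74% ± 0.03. Lyz2, the macrophage lysozyme, took 1.20% ± 0.04 at 4 h and 2.78% ± 0.18 at 0 h. The cathepsin Ctsb took 1.46% ± 0.04 at 4 h and 2.54% ± 0.07 at 0 h, and the cathepsin Ctsd 0.83% ± 0.01 at 4 h and 1.85% ± 0.08 at 0 h.

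Genes outside the lists stood as follows. Vegfa, an angiogenic growth factor, averaged 3.36 ± 0.25 RPKM at 4 h against 11.6 ± 0.635 RPKM at 0 h, a log2 fold change of -1.53 ± 0.10. Ldha, the lactate dehydrogenase subunit that makes lactate, averaged 672 ± 15.3 RPKM at 4 h against 422 ± 52.1 RPKM at 0 h, a change of 0.68 ± 0.09 that was 0.15 and did not pass under listed-read scaling. Actb, the cytoskeletal actin often used to scale measurements, averaged 3786 ± 117 RPKM at 4 h against 886 ± 45.9 RPKM at 0 h. Every library at 4 h was above every library at 0 h for Actb, as for 42.6% of all genes tested.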
